A study of Mus musculus with 18 samples.

Results

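Interferon-stimulated genes are the genes that cells switch on when interferons reach them. The 39 genes described here were taken by symbol from a written list and were followed in the liver RNA-seq of 18 mice. No measured value was used to admit a gene, but the list was written with earlier results of these data known. Of the 39, 37 were analysed, and Mx1 and Mx2 were not analysed here. All 37 passed the filter on low values (1 RPKM or more in 3 or more of the 18 livers), as did 10507 of the 17109 genes with any value above 0.

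Type I interferons bind a receptor made of Ifnar1 and Ifnar2, and the kinases on it phosphorylate Stat2. With Irf9 in the same complex, Stat2 acts at a DNA element, the interferon-stimulated response element, in front of the target genes. Interferon gamma acts through another element, the gamma-activated site. The targets include sensors of viral RNA, proteins that block viral growth, GTPases that attack the vacuoles of intracellular microbes, and chemokines that call in T cells. In the liver, hepatocytes as well as resident macrophages (Kupffer cells) respond to interferon.

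The mice were ICR males, an outbred stock, 10 weeks of age by their labels, with 3 livers in each of 6 groups. Con mice ate the regular diet, AOS mice ate it and received alginate oligosaccharide (a breakdown product of alginate, the seaweed polysaccharide) at 10 mg/kg, HFD mice ate a high-fat diet, and HFD+AOS mice ate the high-fat diet and received AOS. Con-FMT mice ate the high-fat diet and received gut microbiota from untreated donors, and A10-FMT mice ate it and received microbiota from donors given AOS at 10 mg/kg. The donor material was pooled by donor group, so each kind of transplant was a single preparation. The labels name no litter, cage or day that samples share. The p-values rest on the spread between the 3 livers of a group, pooled over the 6 groups, so the spread of every group enters each comparison.

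Values are RPKM (reads scaled for gene length and for the mapped reads of the library), which can be compared between genes because they are per length. The sum of RPKM was between 692303 and 806937 in each liver and 14512 to 14982 genes had a value above 0. Read numbers were not used here, so the depth behind a low value is unknown. Hepatocyte markers summed to between 36557 and 60354 RPKM per liver. Markers of Kupffer cells and macrophages, 11 genes, summed to between 92.8 and 226 RPKM. The T and NK cell markers, 9 genes, summed to between 1.75 and 4.17 RPKM, with Cd3d, Cd8a, Klrb1c and Ncr1 under 0.5 RPKM in every liver. The markers of plasmacytoid dendritic cells, 4 genes, summed to between 2.34 and 3.44 RPKM. Of these, Siglech and Ccr9 were under 0.5 RPKM in every liver, and Tcf4 and Il3ra passed the filter. In whole liver, fewer cells of a type and less RNA per cell cannot be told apart.

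Con liver 3 and AOS liver 3 stood apart from the other livers in that their values lay between those of the other livers of their group. Among the genes that differed at least 2-fold between the first and the second liver, Con liver 3 lay between them for 98.0% of 148 genes and AOS liver 3 for 96.5% of 142 genes. In the same check each of the other 16 livers lay between its group mates for 8.33% to 76.8% of genes. AOS liver 3 was best matched by a mean that weighted AOS liver 1 by 0.35 and AOS liver 2 by 0.65, and 30 of the 37 interferon-stimulated genes lay between the values of these livers in it. The same count was 17 of 37 in Con liver 3 and 2 to 26 in the other livers. Whether Con liver 3 and AOS liver 3 are independent of their group mates was not tested, and the SDs and n = 3 of Con and AOS count them as independent. The comparisons with Con or AOS livers are therefore given with and without Con liver 3 and AOS liver 3.

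The response element of this family can be read in the letters before some of these genes. The motif was GAAA, any 2 bases and GAAA again. Searched on either strand from 250 bases before to 50 bases after the start site in RefSeq promoters (GRCm38.p6), it was in 17 of the 31 interferon-stimulated genes with a promoter in the table (54.8%) and in 3.99% of all 27025 genes. The gamma-activated letters TTCNNNGAA were in 11 of the 31 (35.5%) and in 9.55% of all genes. The stretches below were picked only from genes with a match before the start site. These genes are among the most variable of the set (Isg15, Ifit1, Ifit3, Gbp3) or lead a comparison (Irgm1, Rsad2). Oas1a, more variable than Gbp3, also had matches there and is not shown. The stretches lie wholly before the start site and run 5′ to 3′ in the direction of the gene, with the bases covered by the response element motif in capitals.
Isg15, chr4:156200850-156200921 (- strand): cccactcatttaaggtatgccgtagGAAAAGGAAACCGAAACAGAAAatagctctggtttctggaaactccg
Ifit1, chr19:34640760-34640838 (+ strand): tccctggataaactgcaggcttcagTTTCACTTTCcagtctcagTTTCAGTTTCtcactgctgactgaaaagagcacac
Ifit3, chr19:34583348-34583441 (+ strand): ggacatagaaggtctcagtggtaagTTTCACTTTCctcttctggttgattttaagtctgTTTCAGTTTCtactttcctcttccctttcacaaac
Gbp3, chr3:142559974-142560039 (+ strand): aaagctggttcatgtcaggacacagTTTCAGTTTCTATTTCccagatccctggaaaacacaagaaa
Irgm1, chr11:48871421-48871475 (- strand): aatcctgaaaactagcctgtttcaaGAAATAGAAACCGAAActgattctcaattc
Rsad2, chr12:26456538-26456597 (- strand): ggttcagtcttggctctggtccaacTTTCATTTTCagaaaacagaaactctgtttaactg
Isg15, Ifit1, Ifit3, Gbp3 and Irgm1 held more than one match each, overlapping in Isg15, Gbp3 and Irgm1, and Rsad2 held a single match. Irf7, Ifi44, Tap1, Xaf1 and Ifih1 had no match before the start site, though Irf7 and Ifi44 are also among the most variable of the set. A match describes the letters only, and binding was not measured.

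The level of these genes differed more between livers of one group than is usual, and the differences ran across most of the set at once. The mean of log2(RPKM + 1) over the 37 genes was 2.79, 2.72 and 2.80 in the 3 Con livers. It was 2.73, 3.43 and 3.25 in the AOS livers, and 3.01, 3.14 and 2.90 in the HFD livers. The HFD+AOS livers had 3.29, 2.82 and 3.29. The 3 Con livers, with Con liver 3 among them, thus lay close together, while AOS liver 1 was at their level, and AOS livers 2 and 3 with HFD+AOS livers 1 and 3 were the 4 highest of the 18. The means were 2.86, 2.54 and 2.88 in the Con-FMT livers and 3.01, 2.78 and 2.62 in the A10-FMT livers. Con-FMT liver 2 was the lowest of the 18. By group the mean of this level was 2.77 ± 0.0436 (SD, n = 3) in Con, 3.14 ± 0.366 in AOS, 3.01 ± 0.122 in HFD, 3.13 ± 0.274 in HFD+AOS, 2.76 ± 0.193 in Con-FMT and 2.80 ± 0.194 in A10-FMT. All HFD and HFD+AOS livers were above all Con livers and all Con-FMT livers were below all HFD livers, while AOS and A10-FMT livers overlapped with both Con and HFD.

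**Figure D1:**
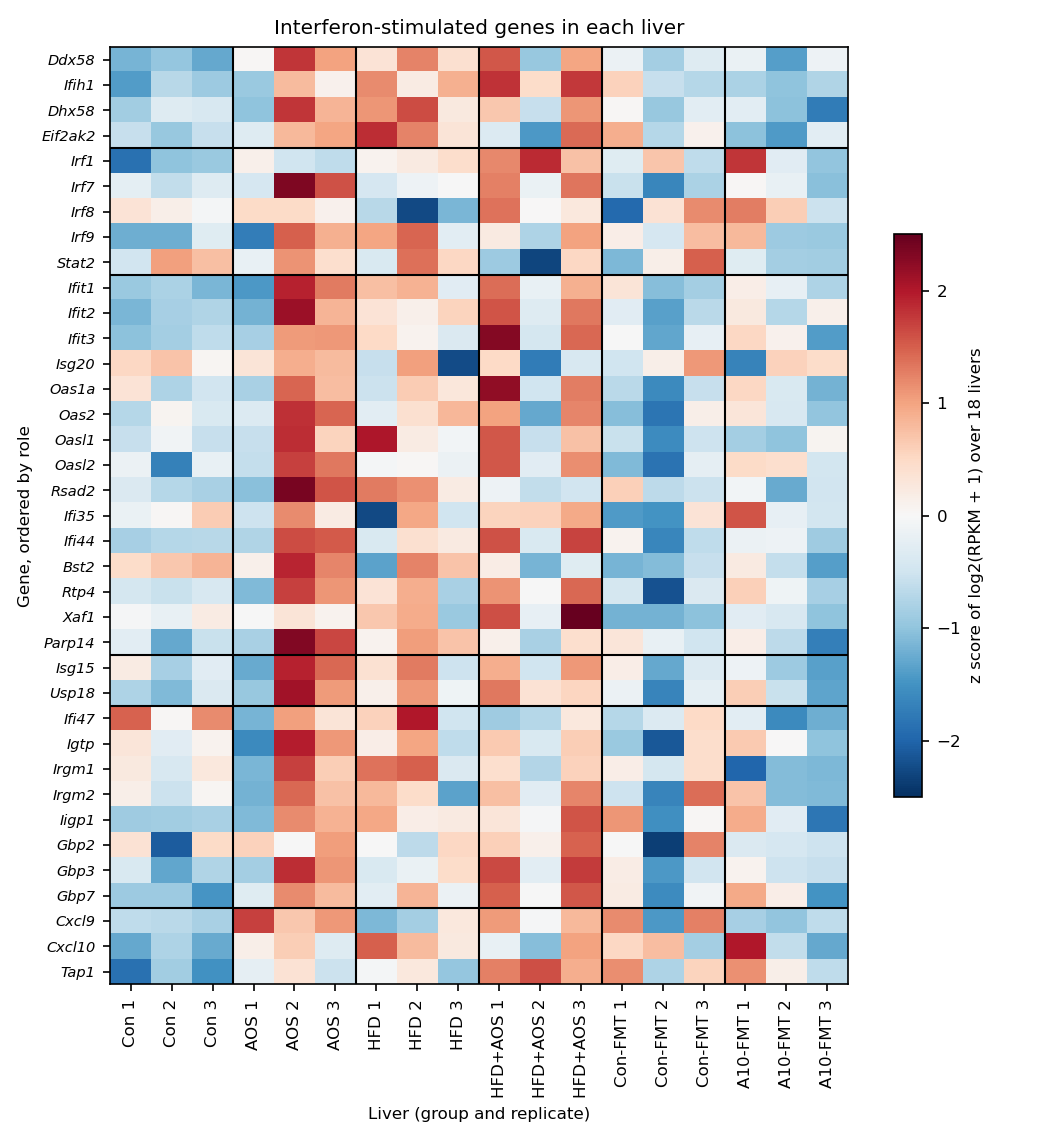
Each cell is the z score of log2(RPKM + 1) of a gene (y axis, ordered by role) in a liver (x axis, by group and replicate) over the 18 livers, red above and blue below the gene's mean. AOS liver 2 is red for nearly all genes and held the highest of the 18 values for 18 of 37, and Con-FMT liver 2 is mostly blue and held the lowest for 15.

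AOS liver 2 had the highest of the 18 values for 18 of the 37 genes, against 4.01% of all genes tested. Con-FMT liver 2 had the lowest for 15 of the 37, against 3.11% of all genes. Within the AOS group, liver 1 was the lowest for 31 of 37 genes (24.6% of all genes) and liver 2 the highest for 31 (24.2% of all genes). Within the HFD+AOS group, liver 2 was the lowest for 33 of 37 (56.6% of all genes). Con-FMT liver 2 was the lowest of its group for 27 (21.6% of all genes), A10-FMT liver 1 the highest for 29 (35.2%) and A10-FMT liver 3 the lowest for 27 (33.7%). So a liver that was high or low for one of these genes was often so for the others. The summed Kupffer cell and macrophage markers were 164, 226 and 197 RPKM in the AOS livers, 155, 136 and 156 in the HFD+AOS livers, 111, 99.7 and 129 in the Con-FMT livers and 129, 103 and 125 in the A10-FMT livers. In the first 3 of these groups they were lowest in the liver with the lowest level of the interferon-stimulated genes. In the HFD livers they were 92.8, 110 and 214 RPKM, highest where the interferon-stimulated genes were lowest. The part of these cells in the spread was not tested.

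The SD of log2(RPKM + 1) between livers of a group, pooled over the 6 groups, had a median of 0.263 over the 37 genes and 0.133 over all genes tested. It was above the 90th percentile of all genes (0.261) for 19 of the 37 and above the median for 35. By group the median SD was 0.335 in AOS (0.0943 over all genes), 0.266 in Con-FMT (0.116), 0.256 in HFD+AOS (0.115), 0.217 in A10-FMT (0.124), 0.216 in HFD (0.131) and 0.0938 in Con (0.112). Con was the only group of the 6 in which the median of the set was below that of all genes. The share of variance that lay between groups had a median of 44.7% over the set and 46.0% over all genes, so the set was close to a usual gene in this share.

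**Figure D2:**
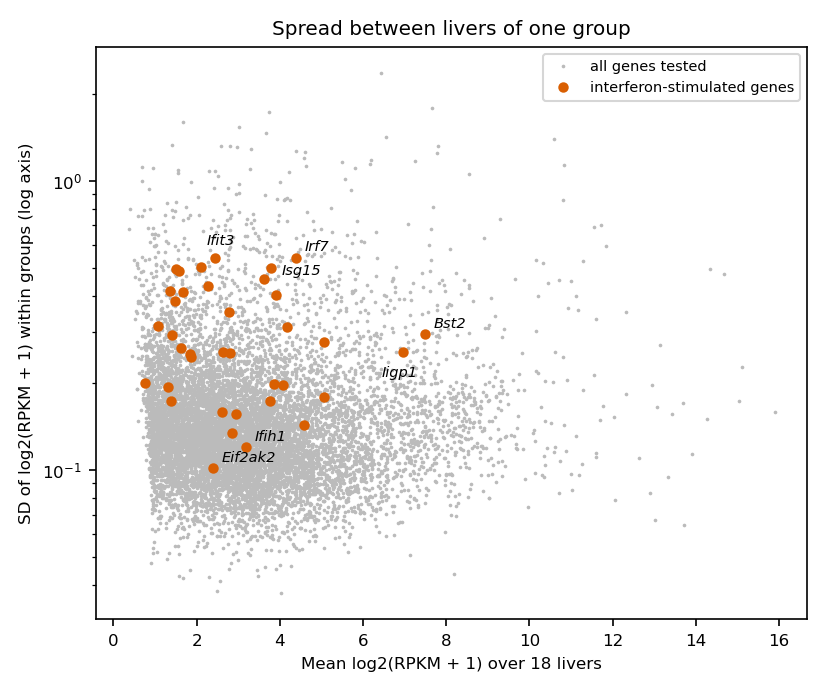
Each point is a gene tested, with its mean log2(RPKM + 1) over 18 livers on the x axis and its SD between livers of one group, pooled over the 6 groups, on the y axis (log axis). The 37 interferon-stimulated genes (orange) lie high in the cloud of all genes (grey), from Eif2ak2 at 0.102 to Irf7 at 0.542.

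The widest spread was found in Irf7, the factor that amplifies type I interferon production. Irf7 had 17.7, 14.6 and 17.1 RPKM in the Con livers and 16.2, 66.2 and 45.3 RPKM in the AOS livers. In the HFD livers it had 16.1, 18.8 and 20.0 RPKM and in the HFD+AOS livers 38.3, 18.6 and 40.1 RPKM. In both groups given AOS directly, 1 liver stayed near the Con level and the others were above every liver of the 4 remaining groups. The Con-FMT livers had 15.0, 8.46 and 13.3 RPKM of Irf7 and the A10-FMT livers 20.4, 18.3 and 11.6 RPKM. Its within-group SD was 0.54 on the log2 scale.

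Isg15, a small protein that is joined to others like ubiquitin, spread in a like way. It had 13.9, 9.34 and 11.6 RPKM in Con, 7.88, 26.4 and 22.1 RPKM in AOS and 14.9, 20.9 and 10.6 RPKM in HFD. In HFD+AOS it had 18.2, 10.6 and 19.3 RPKM, in Con-FMT 13.7, 7.83 and 11.3 RPKM, and in A10-FMT 12.2, 9.03 and 7.58 RPKM. The groups overlapped in each case. Usp18, the protease that takes Isg15 off proteins and restrains the type I receptor, had 2.17, 1.78 and 2.71 RPKM in Con and 1.97, 8.72 and 5.48 RPKM in AOS. It had 3.51, 5.53 and 3.12 RPKM in HFD, all above Con, and 6.15, 3.93 and 4.29 RPKM in HFD+AOS, also all above Con. The Con-FMT livers had 3.06, 1.26 and 2.91 RPKM and the A10-FMT livers 4.43, 2.45 and 1.56 RPKM, which overlapped with Con.

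Ifit3, one of the Ifit proteins that hold back viral RNA, had 2.52, 2.78 and 3.13 RPKM in Con and 2.81, 7.39 and 7.46 RPKM in AOS. It reached its highest value in HFD+AOS, with 13.0, 3.50 and 8.85 RPKM, and had 5.62, 4.6 and 3.66 RPKM in HFD. Every HFD and HFD+AOS liver was above every Con liver for Ifit3. The Con-FMT livers had 4.36, 2.15 and 3.94 RPKM and the A10-FMT livers 5.71, 4.64 and 2.03 RPKM. At the other end, Eif2ak2 (the kinase PKR, which stops translation on viral RNA) kept between 3.68 and 5.17 RPKM over the 18 livers, a within-group SD of 0.10, and Ifih1 had an SD of 0.12.

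**Figure D3:**
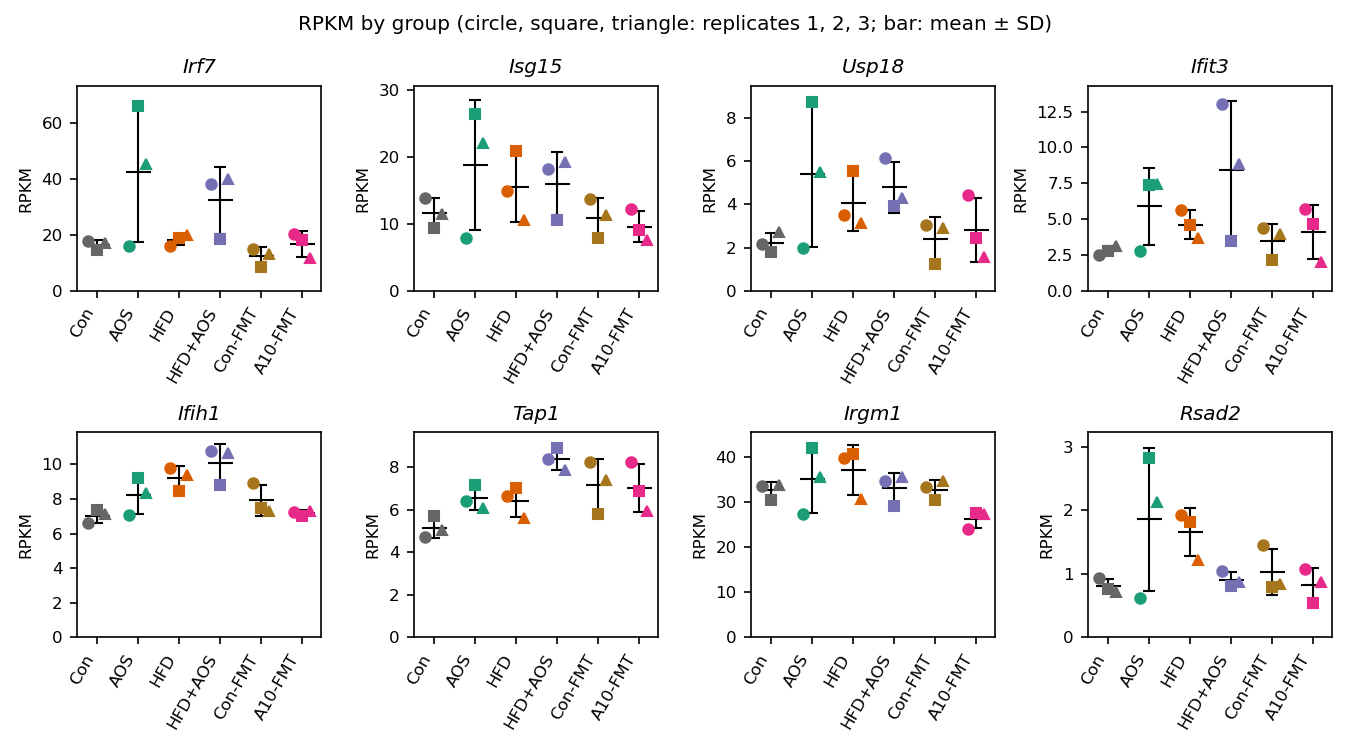
RPKM (y axes, from 0) of 8 interferon-stimulated genes in the 6 groups (x axes), with a marker for each of the 3 livers and bars for the mean ± SD. AOS livers 2 and 3 and HFD+AOS livers 1 and 3 lie above the rest for Irf7, while the Con livers lie close together.

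The levels of the other genes are given by role, as the lowest and highest of the 18 livers. Among the sensors of viral RNA, Ddx58 (RIG-I) ran from 5.07 to 7.94 RPKM, Ifih1 (MDA5) from 6.59 to 10.8 RPKM and Dhx58 (LGP2, which modulates both) from 3.28 to 8.04 RPKM. Among the transcription factors, Irf1 ran from 9.08 to 17.4 RPKM, Irf8 from 0.92 to 2.12 RPKM, and Irf9 and Stat2, which act together in a complex, from 10.5 to 16.8 RPKM and from 11.2 to 19.7 RPKM. The sensors, Irf9 and Stat2 thus stayed within a narrow range compared with Irf7, whose highest value was 7.82 times its lowest.

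The antiviral effectors spanned the widest range of levels. Bst2 (tetherin, which holds budding virus at the cell surface) was the most abundant of the 37, from 127 to 293 RPKM. Ifi35 had 17.96 to 26.84 RPKM, Rtp4 4.89 to 21.3 RPKM, Xaf1 (which counters the apoptosis inhibitor Xiap) 3.62 to 15.1 RPKM, Oasl1 4.14 to 9.52 RPKM and Parp14 (an ADP-ribosyltransferase) 3.92 to 7.12 RPKM. The oligoadenylate synthetase Oas1a, whose product activates RNase L, had 1.85 to 8.98 RPKM, Oas2 0.79 to 2.98 RPKM and Oasl2 0.70 to 4.72 RPKM. Ifit1 had 0.76 to 5.05 RPKM, Ifit2 0.37 to 1.40 RPKM, Ifi44 0.48 to 4.65 RPKM, Rsad2 (viperin) 0.54 to 2.83 RPKM and the exonuclease Isg20 1.07 to 2.72 RPKM. Ifi44 had the largest ratio of highest to lowest liver in the set, 9.69.

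Among the interferon-inducible GTPases, Iigp1 had 89.2 to 162 RPKM, Irgm1 24.1 to 42.2 RPKM, Igtp 21.9 to 46.6 RPKM, Ifi47 11.3 to 28.7 RPKM and Irgm2 8.95 to 20.6 RPKM. The guanylate-binding proteins were lower, with Gbp7 at 1.66 to 3.96 RPKM, Gbp3 at 0.58 to 3.72 RPKM and Gbp2 at 0.83 to 2.00 RPKM. Of the chemokines, Cxcl9 had 1.59 to 4.30 RPKM and Cxcl10 0.95 to 3.81 RPKM. Tap1, which carries peptides to class I antigen presentation, had 4.71 to 8.91 RPKM. The Ifit, Oas, Irgm and Gbp genes have near copies beside them on the same chromosomes, so how their shared reads were divided is uncertain, as it is for genes overlapped by another, since the use of strand is not given in the sources used here.

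By group mean, 16 of the 37 genes were highest in HFD+AOS, 13 in AOS, 7 in HFD and 1 (Ifi47) in Con. The lowest group mean was in Con for 15, in Con-FMT for 10, in A10-FMT for 9, in HFD+AOS for 2 (Stat2 and Isg20) and in HFD for 1 (Irf8). No gene of the set was highest in either transplant group. The same counts were not made over all genes, and Con liver 1 alone had the lowest of the 18 values for 21.5% of all genes tested. Neighbours in this order were often closer than the spread between livers, and the fits that follow test the differences.

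Ifih1 and Tap1 were the only interferon-stimulated genes that passed a test for any difference among the 6 groups. In this test (the moderated F test of limma over the 6 group means on log2(RPKM + 1), adjusted after Benjamini and Hochberg over the 10507 genes), 2 of 37 passed, against 14.8% of all genes tested. At an unadjusted p under 0.05 there were 11 of 37, against 32.6% of all genes. Both shares were below those of all genes. Ifih1 (chr2:62595618-62646255, GRCm38) had 6.59, 7.37 and 7.13 RPKM in Con, 7.09, 9.22 and 8.32 RPKM in AOS and 9.80, 8.45 and 9.36 RPKM in HFD. It had 10.8, 8.78 and 10.7 RPKM in HFD+AOS, 8.93, 7.50 and 7.33 RPKM in Con-FMT and 7.24, 7.01 and 7.30 RPKM in A10-FMT. All HFD and HFD+AOS livers were thus above all Con and all A10-FMT livers. The adjusted p of Ifih1 in the F test over the 6 groups was 0.0203 (limma), which does not test this order.

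Tap1 (chr17:34187556-34197225) had 4.71, 5.70 and 5.04 RPKM in Con, 6.42, 7.14 and 6.06 RPKM in AOS and 6.62, 7.02 and 5.59 RPKM in HFD. It had 8.40, 8.91 and 7.88 RPKM in HFD+AOS, 8.24, 5.80 and 7.39 RPKM in Con-FMT and 8.22, 6.86 and 5.95 RPKM in A10-FMT. Con was the lowest group and HFD+AOS the highest, without overlap between them. The adjusted p of Tap1 in the F test was 0.0354 (limma), and HFD+AOS against Con was not tested on its own. The calls of Ifih1 and Tap1 depended on single livers. Without AOS liver 1, 12 of the 37 genes passed, led by Irf7 (adjusted p = 0.00325), and without HFD+AOS liver 2, 5 passed, led by Xaf1 (0.00376). Without HFD+AOS liver 1 or HFD+AOS liver 3 none passed, and the smallest adjusted p values were 0.0634 for Ifih1 and 0.0552 for Tap1. Only 1 passed, Ifih1, without Con liver 1 (0.0449), Con liver 3 (0.0469), AOS liver 3 (0.0345), Con-FMT liver 3 (0.0259) or A10-FMT liver 2 (0.0412). Without Con liver 3 and AOS liver 3 together none passed (Ifih1 0.0797, Tap1 0.152).

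Between the high-fat and the regular diet, most interferon-stimulated genes had a higher mean in HFD, but none passed the test. The log2 difference between the group means on log2(RPKM + 1), HFD minus Con, was above 0 for 32 of 37 genes (62.5% of all genes). Its median was 0.29, against a median of 0.05 over all genes. None of the 37 passed at an adjusted p under 0.05 (0.381% of all genes did), and 10 had an unadjusted p under 0.05 (15.4% of all genes), 9 of them higher (11.6%) and 1 lower (3.85%). All 4 sensors, 12 of 15 antiviral effectors, 7 of 8 GTPases and 4 of 5 transcription factors had the higher mean in HFD. For 17 genes every HFD liver was above every Con liver (13.8% of all genes), among them Ifit1, Ifit2, Ifit3, Usp18, Rsad2, the 4 sensors, Irf1, Irf9 and Cxcl10. For Irf8 alone every HFD liver was below every Con liver (4.67% of all genes), with 1.37, 0.92 and 1.23 RPKM against 1.72, 1.65 and 1.58 RPKM.

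Ifih1 had the smallest p in this comparison, with a log2 difference of 0.34 (SE 0.10, adjusted p = 0.125, limma). For Ddx58 the HFD livers had 6.49, 7.37 and 6.54 RPKM and the Con livers 5.24, 5.39 and 5.15 RPKM, a difference of 0.32 (SE 0.11, adjusted p = 0.180). Cxcl10, a chemokine for activated T cells, had 3.18, 2.44 and 1.96 RPKM in HFD and 0.95, 1.24 and 0.96 RPKM in Con, a difference of 0.77 (SE 0.28, adjusted p = 0.206). In each of these the groups did not overlap. The differences did not hold against the correction over all genes. Without Con liver 3 and AOS liver 3 the median was 0.30, 7 genes had an unadjusted p under 0.05 (10.2% of all genes), and 17 had every HFD liver above every Con liver (16.9% of all genes). The summed macrophage markers were 132 to 199 RPKM in Con and 92.8 to 214 RPKM in HFD.

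The livers of mice on AOS and the regular diet had the higher mean for nearly all of these genes, through AOS livers 2 and 3. AOS minus Con was above 0 for 36 of 37 genes (67.8% of all genes) with a median of 0.32 (0.07 over all genes), and Ifi47 was the exception at -0.29. No gene of the set passed at an adjusted p under 0.05 (0.133% of all genes did), and 13 had an unadjusted p under 0.05, against 15.5% of all genes. All 13 were higher, which held for 12.9% of all genes, and 0 were lower (2.68%). For 7 genes (Irf1, Ddx58, Gbp7, Cxcl9, Cxcl10, Eif2ak2 and Tap1) every AOS liver was above every Con liver, against 19.5% of all genes, so this share was close to the background, and 0 genes were below in every liver (5.27%). The smallest p was that of Ddx58, with 6.21, 7.94 and 7.13 RPKM in AOS, a difference of 0.37 (SE 0.11, adjusted p = 0.146, limma).

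Cxcl9, a chemokine induced by interferon gamma, had 4.30, 3.19 and 3.60 RPKM in AOS and 2.11, 2.08 and 1.99 RPKM in Con (difference 0.61, SE 0.19, adjusted p = 0.159). It was one of the few genes of the set that were highest in AOS liver 1. Irf7 had the largest difference, 1.11 (SE 0.39, adjusted p = 0.195), in which AOS liver 1 lay within the Con range. Without AOS liver 1 its difference was 1.68 and without AOS liver 2 it was 0.70. The median over the set was 0.48 without AOS liver 1 and 0.20 without AOS liver 2. Without Con liver 3 and AOS liver 3, 35 of 37 were higher with a median of 0.29, and 2 had an unadjusted p under 0.05 (8.76% of all genes).

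The transplant of microbiota from AOS donors was compared with the high-fat diet alone. A10-FMT minus HFD was below 0 for 32 of 37 genes, all 4 sensors and all 8 GTPases among them, while 43.2% of all genes were above 0. The median was -0.22 (-0.03 over all genes). No gene of the set passed at an adjusted p under 0.05, where 6.6% of all genes did, and 7 had an unadjusted p under 0.05 (24.5% of all genes), 6 lower (14.4%) and 1 higher (10.1%). For 6 genes (Rsad2, Ddx58, Ifih1, Dhx58, Irgm1 and Eif2ak2) every A10-FMT liver was below every HFD liver (13.4% of all genes), and for Irf8 every one was above (10.0% of all genes). The 4 sensors were thus all among the 6, while the share of the set was near the background.

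Irgm1 (chr11:48865245-48871420), a GTPase that controls the others of its family and autophagy, lay at the threshold. It had 39.9, 40.8 and 30.8 RPKM in HFD and 24.1, 27.6 and 27.4 RPKM in A10-FMT, a difference of -0.47 (SE 0.14, adjusted p = 0.0501, limma), and without HFD liver 3 it passed, with -0.60 (adjusted p = 0.0298). Dhx58 had 6.81, 7.76 and 5.51 RPKM in HFD and 4.86, 3.98 and 3.28 RPKM in A10-FMT, a difference of -0.61 (SE 0.19, adjusted p = 0.0600). For Ifih1 the difference was -0.32 (SE 0.10, adjusted p = 0.0619), and the A10-FMT livers of 7.01 to 7.30 RPKM were all within the Con range. All 3 genes had no overlap between the groups and did not pass the correction with all livers in the fit. The median over the set was -0.12 without A10-FMT liver 3.

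The transplant from untreated donors was also compared with HFD, with the same HFD livers. Con-FMT minus HFD was below 0 for 33 of 37 genes (49.5% of all genes were above 0) with a median of -0.26 (-0.00 over all genes). None of the 37 passed at an adjusted p under 0.05 (0.00952% of all genes did), and 3 had an unadjusted p under 0.05 (6.63% of all genes), of which 3 were lower (2.75%) and 0 higher (3.88%). Every Con-FMT liver was below every HFD liver for 9 genes (Ifit2, Irf7, Oas1a, Oasl1, Oasl2, Usp18, Ddx58, Dhx58 and Xaf1), against 4.08% of all genes, and above for 0 genes (6.0%). Antiviral effectors were lower in 14 of 15. Xaf1 had 3.62, 3.64 and 3.87 RPKM in Con-FMT and 7.48, 8.21 and 4.02 RPKM in HFD (difference -0.64, SE 0.25, adjusted p = 0.690, limma).

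Oasl1, an Oas family protein that limits Irf7 translation, had 5.30, 4.14 and 5.34 RPKM in Con-FMT and 9.52, 6.31 and 5.93 RPKM in HFD (difference -0.46, SE 0.19, adjusted p = 0.691). Dhx58 had 5.24, 4.06 and 4.86 RPKM in Con-FMT (difference -0.42, SE 0.19, adjusted p = 0.741). Without HFD liver 1, the highest for Oasl1, the difference of Oasl1 was -0.27 (adjusted p = 0.626). The HFD livers were above the Con-FMT livers for both, but within Con-FMT, liver 2 was the lowest in both. Without Con-FMT liver 2 the median over the set was -0.16. The macrophage markers summed to 99.7 to 129 RPKM in Con-FMT and 103 to 129 RPKM in A10-FMT, and to 92.8 to 214 RPKM in HFD.

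The transplants split the set evenly when set against each other. A10-FMT minus Con-FMT was above 0 for 19 genes (43.0% of all genes) and below 0 for 18, with a median of 0.06 (-0.03 over all genes). The median became -0.08 without Con-FMT liver 2 and -0.06 without A10-FMT liver 1. It was 0.13 without Con-FMT liver 3 and 0.12 without A10-FMT liver 3. At an adjusted p under 0.05, 0 of the 37 passed (1.68% of all genes did), and 1 had an unadjusted p under 0.05, Irgm1, on the lower side (10.7% of all genes, and 16.4% in either direction). Every A10-FMT liver was below every Con-FMT liver for Ifih1 and Irgm1 (11.2% of all genes) and above for Xaf1 (7.18%). Irgm1 had 33.4, 30.5 and 34.7 RPKM in Con-FMT (difference -0.31, SE 0.14, 95% interval -0.60 to -0.02, adjusted p = 0.272, limma).

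Cxcl9 had 1.98, 1.87 and 2.12 RPKM in A10-FMT and 3.70, 1.59 and 3.80 RPKM in Con-FMT (difference -0.38, SE 0.19, adjusted p = 0.329). Without Con-FMT liver 2, the low liver of that group, the difference was -0.67 and passed (adjusted p = 0.0395), whereas it was -0.24 without Con-FMT liver 1 (adjusted p = 0.585) and -0.22 without Con-FMT liver 3 (adjusted p = 0.618). Oasl2 had 2.76, 2.69 and 1.73 RPKM in A10-FMT and 1.19, 0.70 and 1.95 RPKM in Con-FMT (difference 0.60, SE 0.30, 95% interval -0.04 to 1.23, adjusted p = 0.330). For both genes the livers of the groups overlapped.

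AOS given with the high-fat diet was compared with the diet alone. HFD+AOS minus HFD was above 0 for 25 of 37 genes (48.7% of all genes) with a median of 0.12 (-0.01 over all genes). None of the 37 passed at an adjusted p under 0.05, where 8.75% of all genes did, and 2 had an unadjusted p under 0.05, both higher (12.4% of all genes, and 26.2% in either direction). Irf1, Irf8 and Tap1 were higher in every HFD+AOS liver (13.2% of all genes) and Rsad2 was lower in every one (14.0%). Tap1 had a difference of 0.35 (SE 0.12, adjusted p = 0.0849, limma). Irf8, a factor of macrophages and dendritic cells, had 2.12, 1.60 and 1.69 RPKM in HFD+AOS against the HFD values above (difference 0.37, SE 0.14, adjusted p = 0.10).

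Xaf1 had 10.5, 5.37 and 15.1 RPKM in HFD+AOS, a difference of 0.53 from HFD (SE 0.25, adjusted p = 0.198). HFD+AOS liver 2 was the low one again, and without it Xaf1 passed, with a difference of 0.90 (adjusted p = 0.0225). Without HFD+AOS liver 3 the difference was 0.23 (adjusted p = 0.587) and without HFD liver 3 it was 0.26 (adjusted p = 0.608). The median over the set was 0.22 without HFD liver 2, 0.07 without HFD liver 3, and 0.04, 0.20 and 0.07 without HFD+AOS livers 1, 2 and 3. The macrophage markers summed to 136 to 156 RPKM in HFD+AOS and 92.8 to 214 RPKM in HFD, and none of the 11, all tested, passed in any comparison. Of the T and NK cell markers 1 of 9 was tested. Of the other cell type markers, Sox9 of cholangiocytes (-0.87, adjusted p = 0.00318) and Apob of hepatocytes (-0.37, adjusted p = 0.0253) passed in HFD+AOS against HFD, and both passed in A10-FMT against HFD (-1.03 and -0.40). The hepatocyte markers, Apob among them, summed to 52413 to 60354 RPKM in HFD+AOS, 45790 to 56771 RPKM in HFD and 46092 to 49452 RPKM in A10-FMT. In HFD+AOS against AOS, Reln of stellate cells (0.68, adjusted p = 0.0224, limma) and Hba-a1 of red blood cells (-1.58, adjusted p = 0.0222) passed. The part of these markers in the results was not tested.

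Between the diets in mice given AOS, the set split evenly. HFD+AOS minus AOS was above 0 for 18 genes (43.4% of all genes) and below 0 for 19, with a median of -0.00 (-0.03 over all genes). The median moved between -0.20 without AOS liver 1 and 0.16 without AOS liver 2. At an adjusted p under 0.05, 0 of the 37 passed, where 5.44% of all genes did, and 6 had an unadjusted p under 0.05 (20.5% of all genes), 4 higher (8.73%) and 2 lower (11.8%). Irf1 and Tap1 were higher in every HFD+AOS liver than in every AOS liver (11.6% of all genes), and 0 genes were lower in every one (17.1%). Irf1, a factor induced by interferon gamma, had 15.5, 17.4 and 14.3 RPKM in HFD+AOS and 12.9, 11.6 and 11.3 RPKM in AOS (difference 0.37, SE 0.13, adjusted p = 0.118, limma). Irf1 was not low in HFD+AOS liver 2, unlike most of the set.

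Ifih1 differed by 0.27 (SE 0.10, adjusted p = 0.131, and 0.18 without AOS liver 1) and Tap1 by 0.32 (SE 0.12, adjusted p = 0.143) between these groups. Without AOS liver 1, Rsad2 passed (adjusted p = 0.00914), and without HFD+AOS liver 2, Xaf1 passed (adjusted p = 0.0237). Without Con liver 3 and AOS liver 3, 23 of 37 were higher with a median of 0.05, and 2 had an unadjusted p under 0.05 (14.3% of all genes).

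Whether AOS acted differently on the diets was tested as the difference between its effects, HFD+AOS minus HFD less AOS minus Con. This difference was below 0 for 30 of 37 genes (36.0% of all genes were above 0) with a median of -0.23 (-0.08 over all genes). None of the 37 passed at an adjusted p under 0.05 (0.504% of all genes did), and 5 had an unadjusted p under 0.05, all below 0 (14.7% of all genes in either direction). Rsad2, viperin, which makes a nucleotide that ends viral RNA chains, led with -1.05 (SE 0.33, adjusted p = 0.158, limma). It had 0.93, 0.76 and 0.72 RPKM in Con, 0.62, 2.83 and 2.13 RPKM in AOS, 1.93, 1.82 and 1.22 RPKM in HFD and 1.04, 0.81 and 0.87 RPKM in HFD+AOS. AOS livers 2 and 3 were thus above Con, and every HFD+AOS liver was below every HFD liver. Without AOS liver 1 the difference was -1.41 and passed (adjusted p = 0.00726). Without Con liver 3 and AOS liver 3 the median over the set was -0.22, and 1 gene had an unadjusted p under 0.05 (8.94% of all genes).

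Ddx58 followed with a difference between effects of -0.39 (SE 0.15, adjusted p = 0.254, and -0.26 without HFD+AOS liver 2), with 7.70, 5.40 and 7.12 RPKM in HFD+AOS. Parp14 had 4.89, 4.19 and 4.68 RPKM in Con, 4.50, 7.12 and 6.49 RPKM in AOS, 5.15, 5.94 and 5.65 RPKM in HFD and 5.18, 4.50 and 5.41 RPKM in HFD+AOS (difference between effects -0.44, SE 0.17, adjusted p = 0.257). For both, AOS liver 1 was the low liver of its group. The median over the set was -0.44 without AOS liver 1, -0.09 without AOS liver 2, -0.08 without HFD+AOS liver 2 and -0.36 without HFD+AOS liver 3.

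**Figure D4:**
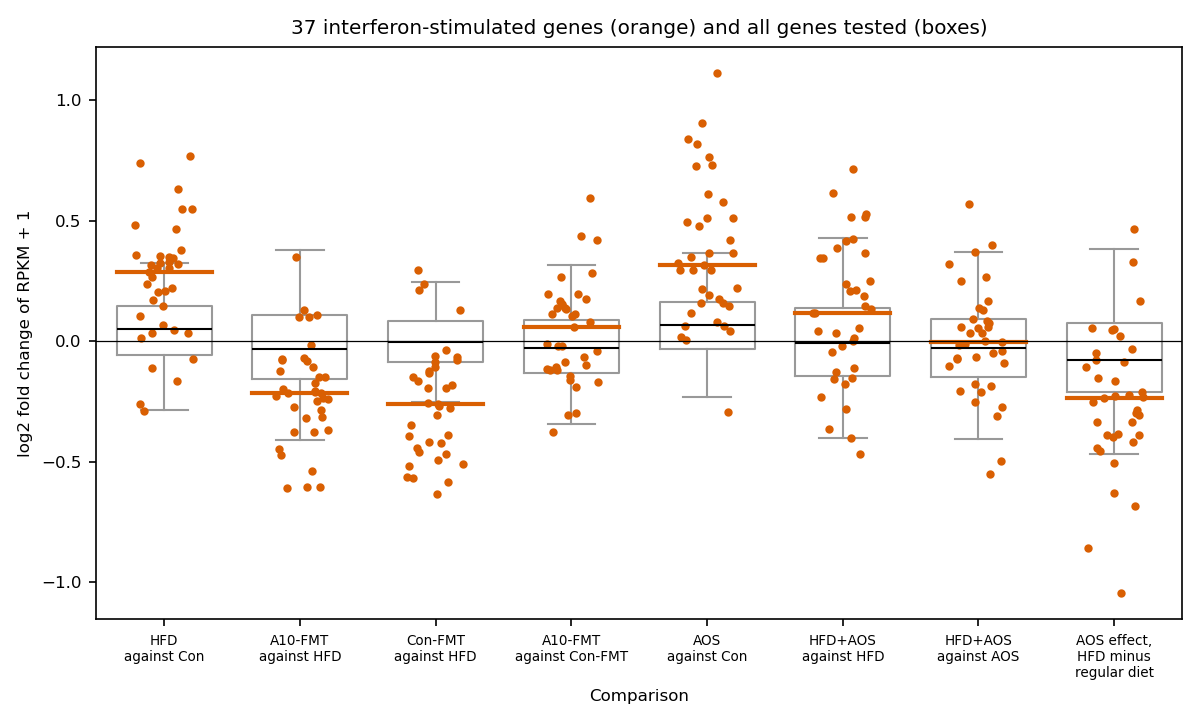
Log2 difference of the group means on log2(RPKM + 1) (y axis) for each of the 37 interferon-stimulated genes (orange points, with their median as an orange line) in the 8 comparisons (x axis). Boxes show the quartiles of all genes tested and whiskers the 5th and 95th percentiles. The set lies above all genes in HFD against Con and AOS against Con (medians 0.29 and 0.32) and below in A10-FMT and Con-FMT against HFD (-0.22 and -0.26), with no gene past the adjusted threshold.

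Of 61 other genes of the pathway, 48 were tested. The interferons themselves were not tested, and Ifng was listed at 0 in 11 of the 18 livers and reached 0.17 RPKM at most. Ifnb1 was not analysed here. The receptor chains Ifnar1 (5.81 to 8.0 RPKM), Ifnar2 (54.4 to 78.1 RPKM), Ifngr1 (5.61 to 8.92 RPKM) and Ifngr2 (7.45 to 11.02 RPKM) stayed within a narrow range and none passed in any comparison.

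Over the 48 pathway genes the median difference was 0.09 in HFD against Con (35 higher), 0.19 in AOS against Con (41 higher), -0.03 in A10-FMT against HFD (22 higher) and -0.10 in Con-FMT against HFD (16 higher), smaller in size than in the 37 genes. In the same order, 62.5%, 67.8%, 43.2% and 49.5% of all genes were higher. Cmpk2, a nucleotide kinase gene that lies beside Rsad2, was the only one that passed in a pairwise comparison. This was HFD+AOS against HFD, where 1 of 48 passed, a smaller share than the 8.75% of all genes. Cmpk2 had 1.82, 2.79 and 2.45 RPKM in HFD and 1.13, 0.51 and 1.14 RPKM in HFD+AOS, a difference of -0.81 (SE 0.23, adjusted p = 0.0434, limma). Every HFD+AOS liver was below every HFD liver (14.0% of all genes), as for Rsad2. Cmpk2 had 1.17, 1.61 and 1.80 RPKM in Con, 1.79, 1.02 and 1.22 RPKM in Con-FMT and 1.22, 0.79 and 0.98 RPKM in A10-FMT. The livers of each of these groups were also all below every HFD liver (13.8%, 4.08% and 13.4% of all genes). The AOS livers had 1.18, 3.97 and 2.47 RPKM, which overlapped with HFD. In the test for any difference among the 6 groups 1 of 48 passed, a smaller share than the 14.8% of all genes. This was Sp100, a nuclear body protein (adjusted p = 0.0265, limma). Sp100 had 2.59, 2.58 and 2.79 RPKM in Con, 3.36, 4.85 and 4.42 RPKM in AOS and 2.85, 3.26 and 3.38 RPKM in HFD. In HFD+AOS it had 4.49, 3.12 and 4.52 RPKM, in Con-FMT 2.53, 2.17 and 2.96 RPKM, and in A10-FMT 3.99, 3.02 and 3.41 RPKM. Its highest values were in AOS liver 2 and in HFD+AOS livers 1 and 3.

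Genes outside the set that moved most like it across the livers were looked for by Pearson's r with the mean z score of the 37 genes over the 18 livers, as a description only, since the livers share groups and library effects. The closest were Gm12250 (r = 0.94), Lgals3bp (0.91), Gbp10 (0.89), Samd9l (0.89), Gbp6 (0.87), Ifi27 (0.87), Slfn5 (0.86), Oas1g (0.86), Ddx60 (0.85) and Herc6 (0.85). Of these, Lgals3bp, Gbp6, Ifi27, Oas1g and Herc6 stood in the list of pathway genes. Ifi27 had 72.4 RPKM in AOS liver 1 and 163 RPKM in AOS liver 2, and Gbp10 had 6.33 and 26.0 RPKM in the same livers. The choice by correlation favours genes with this contrast.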

How the data were processed

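The authors mapped liver RNA-seq reads with SOAPaligner, per the paper's methods, and deposited RPKM for 19057 lines of symbols, with 2 decimals. The submitters' processing notes name Bowtie 0.12.2 and mm10. The unit is that of the paper's methods, as the header is silent on it. No read numbers were used, so the absolute depth is unknown and tests on counts were not run. Groups were taken from the labels, 3 livers each.

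The filter on low values kept 10507 genes (1 RPKM or more in 3 or more livers). Values were log2(RPKM + 1), so a difference understates the change of low genes. One fit with a mean for each of the 6 groups was made over the 18 livers (lmFit, then eBayes with a trend, two-sided, limma 3.58.1, R 4.3.3), with p adjusted (Benjamini-Hochberg) across the 10507 genes of each comparison and a gene called at an adjusted p under 0.05. The members and lists (roles, pathway genes, cell type markers, motifs) were chosen with earlier results of these data known. Values in every liver of the groups compared are given for called genes of the set and of the pathway list. They are also given for the 3 genes with the smallest p in a comparison without a call. Genes with the widest spread, which were chosen after their values were seen, have them as well. Called cell type markers are given by their difference in pairwise comparisons only. In simulated data, for HFD against Con over 10507 genes, 94 of 100 genes changed by 1 on the log2 scale and 99 of 100 changed by 2 were called, with 7 of 10307 unchanged genes. The changed genes were drawn at random from all genes tested, each with its own SD. The interferon-stimulated genes had a wider spread (median SD 0.263, against 0.133 over all genes), so these shares do not carry over to them. The values of 1 pathway gene are not reported here. The alternatives were equal library medians, a pseudocount of 0.1, no filter, the compared groups alone, a replicate block, leaving out each liver, and leaving out Con liver 3 and AOS liver 3. Counts of non-overlapping genes without these livers were added after seeing the data. Tables and figures were made in Python 3.11.15 (pandas 2.3.3, numpy 2.4.6, matplotlib 3.10.9).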

Additional observations from a re-analysis of the deposited data

How the results depend on the processing

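In HFD against Con, Con-FMT against HFD and AOS against Con, 0 interferon-stimulated genes passed in limma under every alternative (smallest adjusted p 0.0998, 0.21 and 0.0577). Leaving out 1 liver at a time gave 0 to 1 genes in each of A10-FMT against HFD, A10-FMT against Con-FMT, HFD+AOS against HFD, HFD+AOS against AOS and the difference of the AOS effect between diets. In the test for any difference among the 6 groups it gave 0 to 12 genes. In that test 1 gene passed without the filter on low values (Ifih1, 0.0379) and 0 without Con liver 3 and AOS liver 3 together (Ifih1, 0.0797), and Tap1 had an adjusted p of 0.0622 with equal library medians. No pairing by replicate number was seen. Correlations of same-numbered livers ran from -0.177 to 0.225, and 0 of 7 comparisons had every one over 0.1. With 3 livers a group, a weak pairing could go unseen in this check. With the replicate block, 0 genes passed in each pairwise comparison and 3 in the test for any difference. The cause of these changes was not tested.

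The median difference over the set kept its sign under every alternative in HFD against Con (0.21 to 0.33), A10-FMT against HFD (-0.32 to -0.12), Con-FMT against HFD (-0.32 to -0.16), AOS against Con (0.20 to 0.48), HFD+AOS against HFD (0.04 to 0.22) and the difference between effects (-0.44 to -0.08). It changed sign in A10-FMT against Con-FMT (-0.08 to 0.13) and HFD+AOS against AOS (-0.20 to 0.16). With 3 livers a group and no read numbers, the error of values near 1 RPKM could not be separated from the spread between livers.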
